A study of Rattus norvegicus with 4 samples.

Results

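The genes examined here encode the proteasome of the rat, together with its regulators and assembly factors, in 4 RNA-seq libraries of liver. Members were taken by symbol: every gene named Psma, Psmb, Psmc, Psmd, Psme, Psmf or Psmg followed by a number, except the interferon-inducible subunits Psmb8, Psmb9 and Psmb10. This gave 47 of the 16999 named genes analysed. Of these, 42 belonged to a part of the machine (7 alpha and 7 beta subunits of the core, 9 subunits of the base, 8 of the lid, 5 regulators and 6 assembly factors) and 5 belonged to none of these. All 4 libraries came from wild type rats, with 1 library per group. Sevoflurane (4.5%) was given either briefly, with the liver taken as soon as consciousness was lost (sevoflurane 0 h, the control), or for the full time (sevoflurane 6 h). Desflurane (6%) was given in the same layout, as desflurane 0 h and desflurane 6 h. Sevoflurane and desflurane are volatile anesthetics. The 0 h controls had therefore also inhaled the agent, and their livers were taken 6 h earlier than those of the anesthetized animals, so that the length of anesthesia and the hour of harvest cannot be told apart. The labels used here state neither age nor sex, nor whether a library stands for 1 animal or a pool.

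The proteasome degrades proteins that carry ubiquitin chains. Its barrel-shaped core is built of rings of alpha subunits, which gate the entry, and rings of beta subunits, of which Psmb5, Psmb6 and Psmb7 carry the catalytic sites. A base with ATPases (Psmc genes) unfolds the substrate, and a lid removes the ubiquitin chain. Because the subunits are needed in fixed proportions, their genes are known to be transcribed together in many cell types, with NFE2L1 as an inducing factor when proteasome activity is short. Under interferon, Psmb9, Psmb10 and Psmb8 replace Psmb6, Psmb7 and Psmb5 in newly built cores, and the activator Psme1-Psme2 caps them.

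Most proteasome genes differed little between 0 h and 6 h. No member above a TPM of 2 differed by more than 2-fold with either agent, and most stayed within 25%, a narrower spread than that of other expressed genes. Above that level, the members that differed by more than 1.5-fold were the assembly factors Psmd10 with sevoflurane and Psmd5 and Psmd9 with desflurane, and the regulator Psme2 was 1.46-fold lower with sevoflurane. Outside the set, all 3 interferon-inducible catalytic subunits were lower at 6 h with both agents. The standard subunits Psmb5 and Psmb7 differed by less than 1.1-fold in both pairs, while Psmb6 was lower in both, with desflurane by about as much as the inducible Psmb10.

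Values are the deposited TPM, a transcript abundance scaled for gene length and library size. They were compared between genes and between libraries as a score only, because reads of 1 gene may also count in an assembled locus. Aligned sequence came to between 3.5 Gb (sevoflurane 0 h) and 5.57 Gb (desflurane 6 h), and the mean depth per base over the 42 genes ranged in sevoflurane 0 h, the shallowest library, from 11.5 to 407. Counting intervals cannot be given, because the files list no reads. The tissue label was checked by markers: 8 hepatocyte markers took between 12.5% and 13.8% of the TPM of all named genes. Of 6 pancreatic genes, Prss1, Pnlip and Ctrb1 were listed at 0 in every library. Cpa1 did not exceed 0.036 TPM and Amy2a3 did not exceed 0.672 TPM. Cela1 was present, with 24.5 TPM in sevoflurane 0 h, 25.2 in sevoflurane 6 h, 23.9 in desflurane 0 h and 29.7 in desflurane 6 h.

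The proteasome was expressed at a similar summed level in all libraries. The 47 genes together gave 2582 TPM in sevoflurane 0 h, 2516 in sevoflurane 6 h, 2748 in desflurane 0 h and 2588 in desflurane 6 h. This was between 0.323% and 0.348% of the TPM of all named genes. Of the members, 45 reached a mean TPM of 1, and 36 were above a TPM of 20 in every library. The rank order of these 45 genes by level was nearly the same everywhere, with a Spearman's rho between 0.976 and 0.984 across genes in the 4 pairs of libraries compared; genes of 1 library share its depth and are not independent replicates.

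Median levels followed the parts of the machine, though single genes of different parts overlapped. Core subunits were the most abundant, with a median of 92.2, 86.4, 95.6 and 93.4 TPM (first sevoflurane at 0 h and at 6 h, then desflurane at 0 h and at 6 h, an order kept for all values below). The base had a median level of 53.1, 50.2, 53.1 and 44.4 TPM. The lid had 33.0, 35.5, 34.6 and 35.8 TPM, and the assembly factors 20.1, 17.9, 20.1 and 18.9 TPM. The order of these 4 parts was the same in every library. The regulators, with a median of 28.2, 33.0, 30.1 and 31.0 TPM, were spread more widely, and Psme1 reached 136, 104, 147 and 134 TPM. Within the core, the highest subunit exceeded the lowest by only 2.98-fold, 3.21-fold, 3.2-fold and 3.17-fold. Psmb1 was the highest in all 4 libraries, with 173, 181, 198 and 188 TPM.

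**Figure D1:**
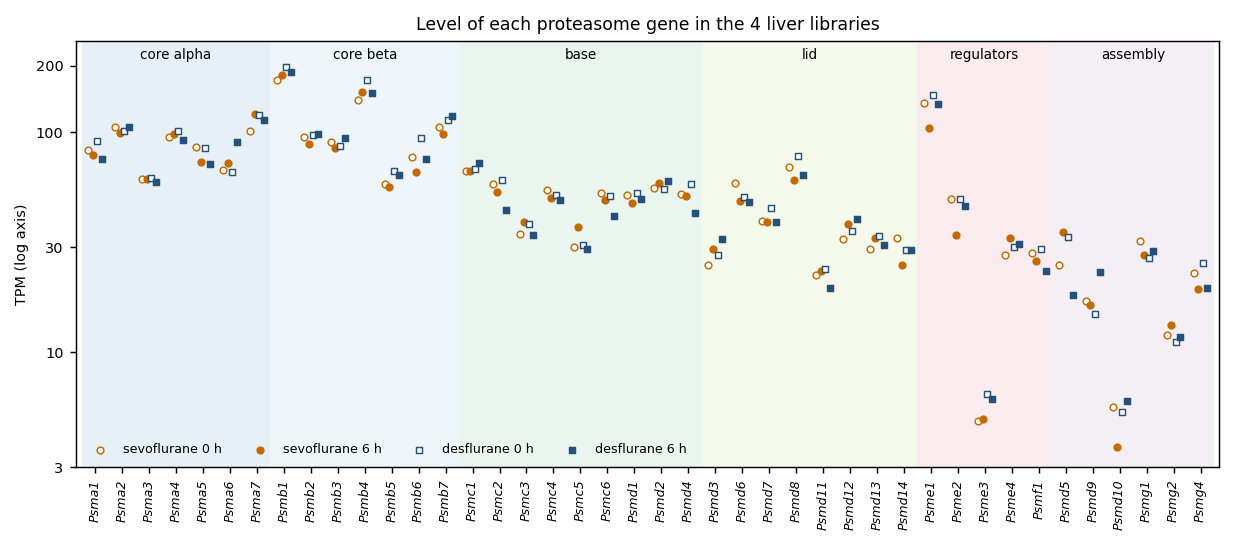
TPM (log axis) of the 42 proteasome genes that belong to a part of the machine, with 1 point per library (open, 0 h; filled, 6 h; circles, sevoflurane; squares, desflurane). Core subunits sit highest as a part (56.5 to 198 TPM), overlapped by Psme1 (104 to 147 TPM) and some base and lid genes. Psme3 and Psmd10 sit lowest, and the 4 points of most genes lie close together.

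The comparisons of anesthesia with control asked whether 6 h of each agent shifted these genes. With 1 library a side there is no test, so genes were called by size: a TPM above 2 in the higher library and a ratio above a set value. With sevoflurane, 0 of 44 members passed a ratio of 2, where 8.75% of all genes above that level did. With desflurane, 0 of 45 members passed, against 9.65% of all genes. At a ratio of 1.5, sevoflurane left 1 member lower (Psmd10; background 9.36%) and 0 higher (background 13.9%). Desflurane left Psmd9 higher (1 member; background 9.07%) and Psmd5 lower (1 member; background 15.1%). All 3 of these genes are assembly factors, and no subunit of the core, base or lid passed.

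Even a difference of 25% (a ratio of 5 to 4 between the higher and the lower library) was exceeded by few members. With sevoflurane 5 of 44 did so in either direction, against 45.2% of all genes: Psmd10, Psmd14, Psme1 and Psme2 were lower and Psmd5 was higher. With desflurane 8 of 45 did so, against 46.6% of all genes: Psma6 and Psmd9 were higher, and Psmc2, Psmc3ip, Psmd4, Psmd5, Psmf1 and Psmg4 were lower. Most proteasome genes are abundant, so the same count was made among abundant genes. Among genes above a TPM of 20 in the higher library the gap remained, with 10.3% of members against 38.5% of genes for sevoflurane and 17.5% against 38% for desflurane.

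**Figure D2:**
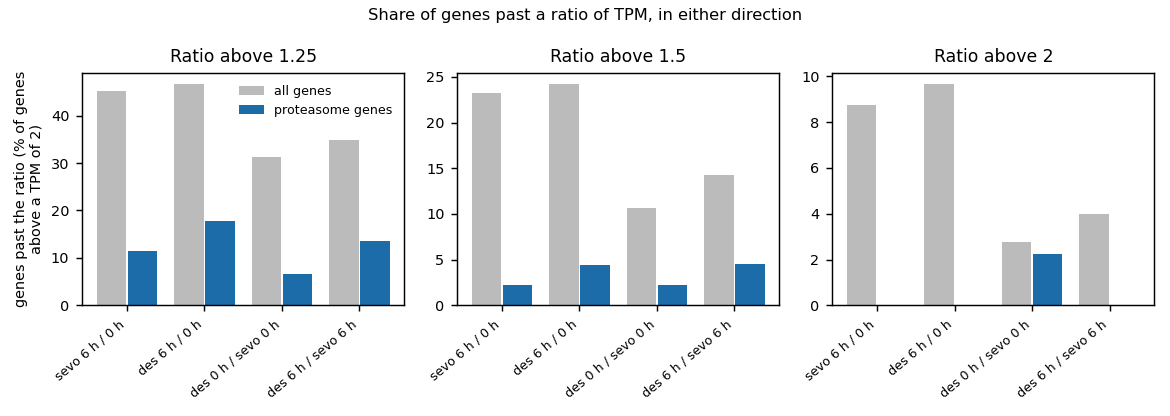
Percentage of genes above a TPM of 2 whose TPM ratio, in either direction, exceeded 5 to 4, 1.5 or 2 (panels), for all genes (grey) and proteasome genes (blue) in 4 pairs of libraries. In the comparisons of 6 h with 0 h the proteasome bars stay below the grey ones at every ratio and are at 0 for a ratio of 2.

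Median changes of log2(TPM + 1) from 0 h to 6 h stayed close to those of the whole transcriptome. With sevoflurane the median over the 45 members was -0.04, against 0.05 for all 9201 genes whose mean TPM reached 1. With desflurane it was -0.08, against -0.10 for all genes. The middle spread of the members' changes (the interquartile range) was 0.22 with sevoflurane and 0.29 with desflurane, where all genes spread over 0.49 and 0.47. By part, the median with sevoflurane was 0.00 for alpha and -0.08 for beta subunits, -0.02 for the base, 0.02 for the lid, -0.11 for the regulators and -0.13 for the assembly factors. With desflurane these medians were -0.08, -0.06, -0.10, -0.10, -0.11 and 0.09. Core, base and lid thus differed little from each other and from the background with either agent. Of the 45 members, 26 were below 0 with sevoflurane and 31 with desflurane, as were 4091 and 5680 of the 9201 genes. Jointly, 18 members were below 0 with both agents, 6 above 0 with both and 21 had opposite signs. The joint signs were not counted over all genes, so nothing particular to the members is read from them.

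**Figure D3:**
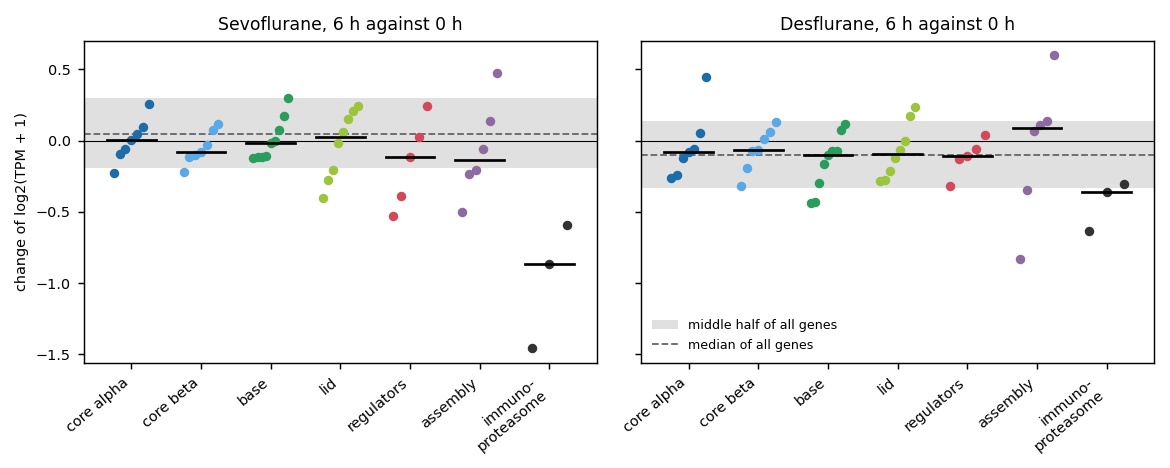
Change of log2(TPM + 1) from 0 h to 6 h with sevoflurane (left) and desflurane (right). Each point is 1 gene, black bars are medians of a part, the grey band holds the middle 50 percent of all genes and the dashed line is their median. Core, base and lid medians lie inside the band, and the 3 immunoproteasome genes lie below it with sevoflurane.

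Libraries can also be compared across all 4 at once. The highest TPM of a member exceeded its lowest by a median of 1.22-fold, against 1.47-fold for all genes. Of the 45 members, 26 (57.8%) stayed within 25% over the 4 libraries, as did 22% of all genes. Psma3, an alpha subunit, was the steadiest (60.9, 61.1, 61.8 and 59.2 TPM), with a ratio of 1.05. Only 4 members (8.89%) exceeded 1.5-fold, against 46.5% of all genes. They were the assembly factors Psmd5, Psmd9 and Psmd10 and the meiotic gene Psmc3ip. These shares over the 4 libraries were not counted again among abundant genes alone.

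Of the 3 standard catalytic subunits, Psmb5 and Psmb7 differed little from control. Psmb5, which carries the chymotrypsin-like site (rn6 chr15:33259039-33263634, minus strand), had 57.9, 56.5, 66.6 and 63.7 TPM. Psmb7, with the trypsin-like site (rn6 chr3:22890072-22951718, minus strand), had 105, 97.7, 114 and 119 TPM. Both stayed within 1.1-fold of their control with either agent. Psmb6, with the caspase-like site (rn6 chr10:57131378-57133685, plus strand), had 76.7, 65.6, 93.9 and 75.2 TPM. The 6 h level differed from control by -14.4% with sevoflurane and -19.9% with desflurane. The controls themselves differed by 22.5% (desflurane 0 h higher), and the highest library was 1.43-fold the lowest. Psmb6 showed the largest decrease among beta subunits with each agent (log2 change -0.22 and -0.32). The largest increases among beta subunits were smaller: 0.12 for Psmb4 with sevoflurane (140, 152, 172 and 151 TPM) and 0.13 for Psmb3 with desflurane (89.8, 84.9, 86.2 and 94.3 TPM). Psmb4 and Psmb3 are structural subunits without a catalytic site.

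Among alpha subunits, the genes with the largest shifts differed between the agents. With sevoflurane Psma5 had the largest decrease (85.3, 72.8, 84.8 and 71.7 TPM) and Psma7 the largest increase (101, 120, 120 and 114 TPM). The log2 changes with sevoflurane were -0.23 and 0.26. The sevoflurane 0 h library was the low one for Psma7, with the other 3 close together. With desflurane Psma1 was the lowest against control (82.6, 79.1, 91.1 and 75.8 TPM, log2 change -0.26) and Psma6 the highest. Psma6 had 67.3, 72.1, 65.9 and 90.1 TPM, and its log2 change with desflurane was 0.45, with only the desflurane 6 h library standing apart. All 4 genes form the ring that gates the core.

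The base holds 6 ATPases that unfold substrates, the scaffold subunits Psmd1 and Psmd2, and the ubiquitin receptor Psmd4. Psmd1 had 51.8, 47.4, 53.1 and 49.5 TPM, and Psmd2 had 55.9, 58.8, 55.3 and 59.9 TPM. Psmd1, at a log2 change of -0.12, was still the largest decrease in the base with sevoflurane, and Psmd2, at 0.11, the largest increase with desflurane. Psmd4 had 52.2, 51.5, 58.1 and 42.9 TPM, and the ATPase Psmc2 had 58.2, 53.6, 60.4 and 44.4 TPM. Both were lowest in desflurane 6 h, with log2 changes of -0.43 and -0.44 in that pair against -0.02 and -0.12 with sevoflurane. The ATPase Psmc5 went the other way with sevoflurane (30.01, 37.2, 30.8 and 29.3 TPM, log2 change 0.30), where sevoflurane 6 h stood above the other 3 libraries.

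In the lid, the deubiquitinating subunit Psmd14 (rn6 chr3:47578449-47673330, plus strand) had 33.2, 24.9, 29.1 and 29.0 TPM. Its 6 h level differed from control by -25.1% with sevoflurane and by -0.342% with desflurane. Its sevoflurane 0 h value was the highest of the 4, and against the desflurane 0 h library the log2 change of sevoflurane 6 h was -0.22 in place of -0.40. Psmd3, a structural lid subunit, had the largest increase with both agents, with 24.8, 29.5, 27.6 and 32.6 TPM and log2 changes of 0.24 and 0.23. Psmd8, another structural subunit, had the largest decrease with desflurane (69.7, 60.4, 77.8 and 63.8 TPM, log2 change -0.28).

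The regulators differed more between the agents. Psme1 (rn6 chr15:34256071-34258947, plus strand) and Psme2 (rn6 chr15:34265555-34269851, minus strand), neighbours in the genome, encode the activator that interferon induces. Psme1 had 136, 104, 147 and 134 TPM and differed from control by -23.7% with sevoflurane and -8.87% with desflurane. Psme2 had 49.7, 34.1, 49.8 and 46.2 TPM and differed by -31.4% and -7.32%. For both genes sevoflurane 6 h was the lowest library and the other 3 lay within 1.1-fold. The ratio of Psme1 to Psme2 ranged only from 2.74 to 3.05. Psme3, which forms a nuclear activator, was scarce, with 4.89, 4.99, 6.45 and 6.15 TPM, and differed between the pairs more than within them. Psme4, which encodes a large activator made of a single chain, had 27.7, 33.0, 30.1 and 31.0 TPM, the largest increase among regulators with each agent (log2 change 0.24 and 0.04). Psmf1, a proteasome inhibitor, had 28.2, 26.0, 29.3 and 23.3 TPM and the largest decrease among regulators with desflurane (log2 change -0.32).

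Among the 42 genes of the named parts, the only differences past 1.5-fold were in assembly factors. Psmd5, Psmd9 and Psmd10 encode chaperones that hold the ATPases while the base is built. Psmd5 (rn6 chr3:13916199-13933483, minus strand) had 25.01, 35.04, 33.2 and 18.2 TPM, a difference from control of 40.1% with sevoflurane and -45.2% with desflurane. The low library with sevoflurane was the control: measured against desflurane 0 h instead, the log2 change of sevoflurane 6 h was 0.07 in place of 0.47, while that of desflurane 6 h against sevoflurane 0 h was -0.44 in place of -0.83. Psmd9 (rn6 chr12:38786539-38805118, minus strand) had 17.1, 16.4, 15.0 and 23.2 TPM, a difference of 54.7% with desflurane, where 1 library stood above the others. Psmd10 (rn6 chrX:112323188-112328642, minus strand) had 5.63, 3.69, 5.36 and 6.01 TPM, a difference of -34.5% with sevoflurane, at a mean depth per base of only 12.6 in the low library. The 3 chaperones of the alpha ring, Psmg1, Psmg2 and Psmg4, stayed within 1.5-fold over the 4 libraries. Psmg3 was not analysed here.

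The 5 members that are part of none of these groups need their own account. Psma3l (108, 111, 113 and 110 TPM) lies on the same stretch of chromosome 6 as Psma3, and RefSeq lists it as a synonym, so that the division of reads between the 2 entries is uncertain. Their sum was 169, 172, 175 and 169 TPM. Psmc3ip, a recombination factor of meiosis named for its binding to a base ATPase, had 0.783, 1.83, 2.19 and 1.47 TPM. Its ratio of 2.34 with sevoflurane was above that of every other member, but both values lay under the TPM of 2 needed for a call. Psme3ip1, which encodes a partner of the nuclear activator, had 9.54, 8.65, 8.92 and 7.37 TPM. Psma8, the alpha subunit of testis, stayed at or below 0.152 TPM, and Psmb11, the beta subunit of the thymus, was listed at 0 in both sevoflurane libraries and at no more than 0.0325 TPM in the desflurane libraries. Copies named after members are a further limit, since 19 members have 1 or more of the 52 pseudogenes or copies that RefSeq names after them.

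The inducible subunits can be set beside the standard ones. Psmb9 had 78.8, 28.1, 58.9 and 37.6 TPM, Psmb8 had 113, 61.5, 102 and 79.4 TPM, and Psmb10 had 38.5, 25.1, 40.1 and 32.2 TPM. For each of them both 6 h libraries lay below both controls. The differences from control with sevoflurane were -64.4%, -45.5% and -34.7%, and those with desflurane -36.2%, -22.2% and -19.5%, the last near the -19.9% of Psmb6. Set against the subunit it replaces, Psmb9 went from 1.03 to 0.427 of the Psmb6 level with sevoflurane and from 0.627 to 0.5 with desflurane. Psmb8 went from 1.95 to 1.09 of Psmb5 and from 1.53 to 1.247, and Psmb10 from 0.367 to 0.257 of Psmb7 and from 0.351 to 0.271. Summed over the 3 pairs, inducible to standard TPM was 0.961 and 0.522 with sevoflurane, and 0.732 and 0.579 with desflurane. The controls of the 2 agents thus differed from each other in this ratio.

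**Figure D4:**
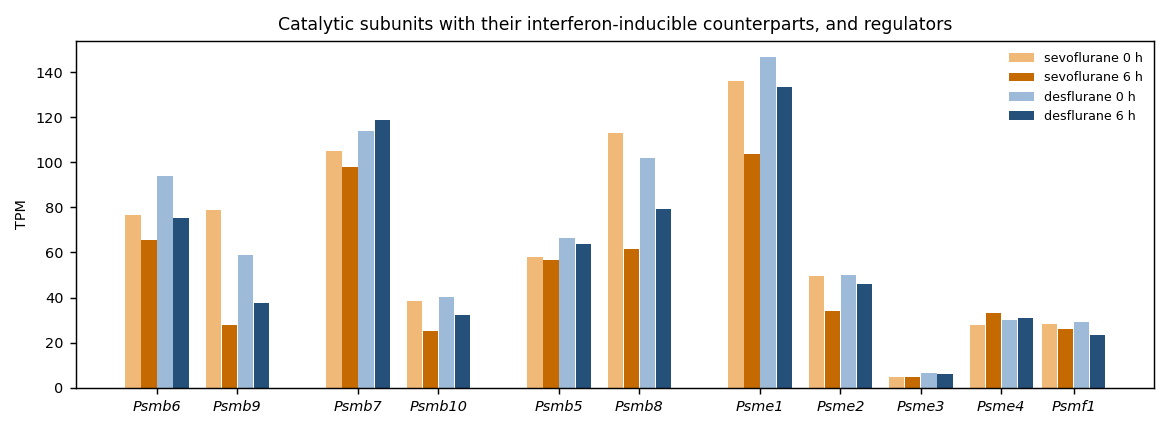
TPM (linear axis from 0) in the 4 libraries for each standard catalytic subunit beside its inducible counterpart (Psmb6 and Psmb9, Psmb7 and Psmb10, Psmb5 and Psmb8) and for the 5 regulators. The dark bars of Psmb9, Psmb10 and Psmb8 (6 h) stand below both pale bars (0 h), while Psmb5 and Psmb7 are nearly level within each agent.

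Immune cells are rich in these inducible genes, and their markers also shifted. The 7 macrophage markers summed to 275.4, 231.6, 257.0 and 312.2 TPM, with 6 of 7 lower with sevoflurane (median log2 change -0.26) and 7 of 7 higher with desflurane (0.30). The 6 lymphocyte markers used summed to 14.56, 10.42, 11.03 and 10.93 TPM, most of it from Cd4. The cytotoxic T cell gene Cd8a had 2.24, 1.08, 3.09 and 0.602 TPM and the T cell gene Cd3d 0.808, 0.392, 0.659 and 0.111 TPM. For both genes the 6 h libraries lay below both controls, as for the inducible subunits, though Cd3d stayed under 1 TPM. The other markers of this list did not have that order. Cd4 had 7.35, 7.39, 5.71 and 7.99 TPM, and Klrb1a had 1.28, 0.498, 0.637 and 0.684 TPM. Nkg7, of cytotoxic lymphocytes, had 2.87, 1.01, 0.942 and 1.51 TPM. Over the 3 lymphocyte markers whose mean TPM reached 1, the median log2 change was -0.64 with sevoflurane and 0.37 with desflurane. Of the defining genes, Cd3e, of T cells, did not exceed 0.0575 TPM and was listed at 0 in both controls, and Cd79a was not analysed here. The part of these cells in the values of Psme1, Psme2 and the inducible subunits was not tested, and in bulk tissue fewer cells of a type and less RNA per cell cannot be told apart. In desflurane 6 h all 3 inducible subunits were below their control while all 7 macrophage markers were above. Some markers of other cells also differed: the 4 red blood cell genes with a mean TPM above the minimum had a median log2 change of 1.34 with sevoflurane, 0.86 with desflurane and 0.60 between controls. The collagen gene Col3a1 rose by 0.65 in the limma fit described below (SE 0.13, limma adjusted p 0.00788). Of the other stellate cell and fibroblast markers in that fit, Col1a1 (0.45), Reln (0.30) and Lrat (0.004) did not pass (limma adjusted p 0.333, 0.514 and 0.996).

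The comparisons between agents set the libraries of 1 time side by side. Between the controls, Psmc3ip alone passed a ratio of 2 among 45 members (higher in desflurane 0 h; background 2.76%), and it was also the only one past 1.5 (1 higher, background 7.82%; 0 lower, background 2.74%). By more than 25% there were 3, Psmc3ip, Psmd5 and Psme3, against 31.2% of all genes. Between the anesthetized animals 0 of 44 members passed a ratio of 2 (background 3.99%). Psmd10 was more than 1.5-fold higher with desflurane (1 member; background 6.65%) and Psmd5 lower (1 member; background 7.68%). By more than 25% there were 6, against 34.9% of all genes: Psmd9, Psmd10, Psme1 and Psme2 were higher with desflurane, and Psmc5 and Psmd5 lower. The median difference of desflurane 6 h from sevoflurane 6 h was 0.15 for beta subunits and -0.19 for the base on the log2 scale, against -0.03 for all genes. Between the controls, desflurane 0 h differed from sevoflurane 0 h by 0.20 for beta subunits and 0.04 for the base, against 0.11 for all genes. The difference of the beta subunits was thus present at 0 h.

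A change common to both agents could be tested, since it has 2 libraries a side, though these had different agents and are not replicates. limma was fitted to log2(TPM + 1) of the 8024 genes whose mean TPM reached 2, with a block for the agent, and 692 of them (8.62%) had a Benjamini-Hochberg adjusted p under 0.05, while 1599 (19.9%) had an unadjusted p under 0.05. Of the 44 members in the fit, 0 passed either threshold. The lowest adjusted p in limma was 0.312, for Psme2 (common log2 change -0.32, SE 0.16, lower in 2 of 2 pairs). Psme1 (-0.26, SE 0.13) and Psmb6 (-0.27, SE 0.14) followed, each with a limma adjusted p of 0.317. The fit has 1 residual degree of freedom and borrows its spread from all genes, so failing the threshold does not show that a gene was unchanged. The 95% intervals rest on the same borrowed spread. In all 44 members they lay between -1 and 1, the outermost ends being -0.73 (Psmd5) and 0.71 (Psmd9), with a median half-width of 0.33. They concern the common change only and do not bound the change with a single agent. The interval of Psmd5 ran from -0.73 to 0.37, while its log2 changes were 0.47 with sevoflurane and -0.83 with desflurane.

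**Figure D5:**
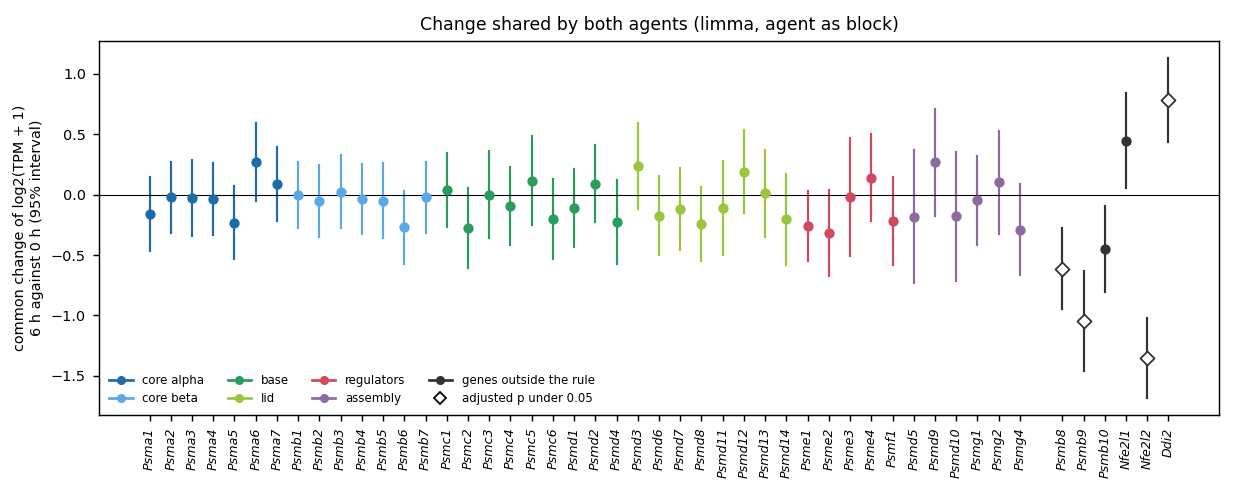
Common change of log2(TPM + 1) from 0 h to 6 h over both agents, with 95% intervals from limma, for the 42 proteasome genes of the named parts (coloured) and for 6 genes outside the set (dark; open diamonds, adjusted p under 0.05). All 42 intervals of proteasome genes include 0, while Psmb9 (-1.05), Psmb8 (-0.61), Nfe2l2 (-1.35) and Ddi2 (0.79) are past the threshold.

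In the same fit Psmb9 fell by 1.05 on the log2 scale (SE 0.19, limma adjusted p 0.00395) and Psmb8 fell by 0.61 (SE 0.15, limma adjusted p 0.0271). Psmb10 gave -0.45 (SE 0.16, limma adjusted p 0.135). The calls of Psmb9 and Psmb8 depended on the fit. Under another scaling of the libraries (median of ratios) 1 of the 3 inducible subunits passed, as in a fit without the agent block. The fits with a library left out also dropped the block, so they cannot show the part of a single library in these calls.

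The pathway that controls proteasome genes was measured as well. NFE2L1 is cleaved by the protease DDI2 before it enters the nucleus, and NFE2L2 is the related factor of the antioxidant response. Nfe2l1 had 15.6, 22.2, 15.3 and 20.6 TPM (common log2 change 0.45, SE 0.18, limma adjusted p 0.183), with both 6 h libraries above both controls. Ddi2 had 29.3, 57.4, 35.1 and 54.8 TPM and rose by 0.79 (SE 0.16, limma adjusted p 0.00756). Nfe2l2 had 78.6, 31.2, 62.6 and 23.0 TPM and fell by 1.35 (SE 0.15, limma adjusted p 9.46e-05). Ddi2 had the largest increase and Nfe2l2 the largest decrease of the 9 genes of this pathway with each agent. At a ratio of 1.5 these were the only ones past it (1 higher and 1 lower with either agent). That is 22.2% of the list, near the share of all genes (23.3% with sevoflurane and 24.2% with desflurane).

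Other parts of the system were counted in the same way. At a ratio of 1.5, 23.3% of all genes passed with sevoflurane and 24.2% with desflurane. Among the proteasome-associated genes 10% and 0% passed, and among the ubiquitin genes 16.7% and 16.7%. Lists this short cannot be told apart from all genes by such shares. Among 10 genes for proteasome-associated factors, shuttles and deubiquitinases, Zfand2a, a stress-induced partner of the regulatory particle, had the largest increase with both agents (3.29, 5.96, 5.13 and 7.58 TPM). It was past a ratio of 1.5 with sevoflurane only, and its difference between agents was not tested. The largest decreases of this list were those of Txnl1 with sevoflurane (73.2, 64.6, 73.7 and 69.2 TPM) and Ubqln4 with desflurane (4.25, 4.52, 5.80 and 4.53 TPM). Among 6 ubiquitin and activating-enzyme genes, Uba6, an activating enzyme, was past 1.5 with both agents (5.63, 3.54, 5.96 and 3.18 TPM), and the ubiquitin gene Ubb had the largest increase with both (280, 337, 305 and 330 TPM). Of the subunits and assembly factors with other names, Pomp, a maturation factor of the core, was the largest decrease with both agents (240, 199, 247 and 214 TPM) and the ubiquitin receptor Adrm1 the largest increase (10.2, 13.6, 10.6 and 11.3 TPM).

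Promoter sequence was set beside these values. Windows from 250 bases before to 50 after the start site were available for 41 of the 47 members in a RefSeq table of the GRCr8 assembly, a later build than that of the expression values, so the coordinates here and those above must not be mixed. The core of the antioxidant response element, to which NFE2L1 and NFE2L2 bind, was searched as TGACNNNGC on both strands. It was present in 8 of 41 members (19.5%), in 12.1% of all 33469 windows and in 15.1% of the windows of genes whose mean TPM reached 1. The members were Psma3, Psmb2, Psmb5, Psmb6, Psmd1, Psmd3, Psmd9 and Psme4, so that beta subunits had it in 3 of 7. The matches in Psmb5 and Psmb6, which carry catalytic sites, and in Psmd9, which had the largest increase with desflurane, are shown 5′ to 3′ on the strand that holds them, with the motif in capitals.
Psmb5: cgtgaagctgTGACGTCGCggcgttgccc
Psmb6: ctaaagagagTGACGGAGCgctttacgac
Psmd9, upstream match: ggttttcagaTGACCCGGCagagctaagt
Psmd9, downstream match: gagtttccggTGACCTCGCcccacctcca
These lie at chr15:32047421-32047449 (minus strand, 60 bases before the start), chr10:55737854-55737882 (plus strand, 24 before), chr12:39018370-39018398 (plus strand, 124 before) and chr12:39018323-39018351 (minus strand, 77 before). Members with a match had a median log2 change of -0.05 with sevoflurane and -0.03 with desflurane (8 genes), and those without -0.04 and -0.13 (32 genes whose mean TPM reached 1).

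The CCAAT box, known from many proteasome promoters, was found in 20 of 41 members (48.8%), against 37.5% of all windows, with the alpha subunits at 5 of 6. In Psmb2 a CCAAT box and an antioxidant response element core shared 1 base. The core of the interferon-stimulated response element, searched on both strands as a pair of GAAA blocks with any 2 bases between them, was chosen after the values had been seen. It was present in 5 of 41 members (12.2%; Psma4, Psmb3, Psmd7, Psme2 and Psmg4), in 3.92% of all windows, and in Psmb8 and Psmb10 among the 3 inducible subunits. The matches in Psme2 and in the inducible subunits are shown in the same way, as genes that interferon is known to induce.
Psme2: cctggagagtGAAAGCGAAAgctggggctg
Psmb8: acaaggaagtGAAAGCGAAAgccacagcac
Psmb10, upstream match: aagcaaaggcGAAAGTGAAAgagaagatgc
Psmb10, downstream match: agtggggggtGAAAGCGAAAgtaggaagcg
They lie at chr15:33052785-33052814 (minus strand, 53 bases before the start), chr20:4657016-4657045 (plus strand, from 4 before and across the start), chr19:50743346-50743375 and chr19:50743290-50743319 (both minus strand, 73 and 17 before). The 5 members with this motif had a median log2 change of -0.08 with sevoflurane and -0.12 with desflurane, against -0.04 and -0.08 for the 35 without. A match says only that these letters occur in the window.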

How the data were processed

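RNA-seq was performed on liver from 4 rats or pools of rats (1 library per group; groups taken from the titles). Per the labels, RNA was extracted from tissue in RNAlater (RNeasy Midi) and made into stranded total RNA libraries. The submitters' processing notes name HISAT2, SAMtools and StringTie, without versions, and build rn6. The TPM column deposited by the authors was handled as a score, because assembled loci alone fill the expected total and named genes add to it, so reads of 1 gene may also count in an assembled locus. The FPKM deposited by the authors served as an alternative. The coverage signal deposited by the authors gave the aligned bases, as the median of coverage over FPKM.

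Rows of 1 symbol were summed and rows of 200 bp or less left out. Ratios of 2, 1.5 and 5 to 4 were used with a TPM above 2. Changes are of log2(TPM + 1), over genes whose mean TPM reached 1. limma 3.58.1 (R 4.3.3; eBayes with trend, agent as block) was fitted to genes whose mean TPM reached 2, after a check on simulated data. Python 3.11.15 was used elsewhere. p-values rest on the spread between these libraries and on that borrowed from all genes, not on replicates of a group. RefSeq windows were matched by symbol. The members and lists were chosen with earlier results of these data known.

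Values in the text are given for the catalytic subunits, Psmd1, Psmd2, Psmd4, Psmd14, the regulators, the largest increase and decrease of each part with each agent, members past a ratio of 2 or in no part, the inducible subunits and Nfe2l1; of other lists, for their largest changes. Psma3 and Psmb1 were named after their values were seen, as were members past the smaller ratios. Alternatives were other scaling, FPKM, pseudocount, TPM minimum, ratio, control and left-out libraries. 1 lymphocyte marker is not reported here and was left out of that list.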

Additional observations from a re-analysis of the deposited data

Results flagged for a closer look

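Psmd5, the chaperone of the base, was more than 25% away from control in opposite directions with the 2 agents, higher with sevoflurane (25.01 to 35.04 TPM) and lower with desflurane (33.2 to 18.2 TPM). The log2 change with desflurane minus that with sevoflurane was -1.30. The difference was not tested, since there is 1 library per group, and the 25% limit was set after the values were seen. The controls of the 2 agents themselves differed by 0.40 for this gene on the log2 scale.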

How the results depend on the processing

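The sign of the members' small median changed with the scaling for desflurane and between controls, but not for sevoflurane. With sevoflurane it moved from -0.04 to -0.09 under median-of-ratios scaling. With median-of-ratios scaling the median of all genes moved from -0.10 to -0.01 with desflurane and from 0.11 to -0.001 between controls, and with it the members' median moved from -0.08 to 0.031 with desflurane and from 0.07 to -0.066 between controls. The log2 ratio of the members' summed TPM then became 0.022 with desflurane and -0.042 between controls. Counts past 1.5 with sevoflurane (1 in the report) were 2 with median-of-ratios scaling or FPKM, 0 with a TPM minimum of 20 or the control of the other agent, and 5 with the limit at 25%. With desflurane (2 in the report) they were 0 with the other control and 8 at 25%. Between controls, the 1 member past a ratio of 2 or 1.5 became 0 with FPKM or a TPM minimum of 5 or 20, and 3 at 25%. Between 6 h libraries, 2 became 1 with a TPM minimum of 20 and 6 at 25%. Adding Psma3l to Psma3 gave a core ratio of 2.95 in desflurane 6 h. In limma, the count of members with an adjusted p under 0.05 was 0 in every setting run, including a fit without the agent block, and ranged from 0 to 0 when each library was left out. At an unadjusted p under 0.05, 3 members passed without sevoflurane 6 h and 2 without desflurane 6 h. Over all genes the count of 692 became 488 without the agent block. The fits with a library left out also dropped the block, so their counts cannot be set against 692. In these fits the lone library of an arm is assumed to vary like the others. The cause of these shifts was not tested. The TPM minimum of 20, the sum of Psma3 and Psma3l and the use of 25% as a rule of its own were chosen after seeing the data, as was a tolerance of 0.1 for calling a median stable. Of the values recomputed for the main comparisons, 99 stayed within their limits and 21 moved.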
